A study of Mus musculus with 18 samples.

Results

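The genes described here are the 10 mouse genes for the chains of collagen types IV, VIII, XV and XVIII: Col4a1 to Col4a6, Col8a1, Col8a2, Col15a1 and Col18a1. They were taken by symbol and matched to the Ensembl identifiers of a count table of 47643 genes. A second deposited table, in which counts are scaled by library depth (CPM), lists 7 of the 10. A filter on low counts left 6 of them among 14309 genes tested: Col4a1, Col4a2, Col4a5, Col8a1, Col15a1 and Col18a1. The libraries came from MPC3, a mouse prostate cancer cell line, and held polyadenylated RNA. There were 6 control libraries, whose titles carry the vector label plko, 6 with the short hairpin RNA shRNF185.1 and 6 with shRNF185.3, both labelled as knockdown of RNF185. The labels name no further treatment, time or clone. Each group had 2 libraries in each of 3 labelled batches. Nothing in the labels says that the libraries of a group came from separate cultures, so the p-values measure the spread between these libraries, which may be technical.

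Basement membranes are thin sheets of matrix beneath epithelia and endothelia and around muscle and nerve. Type IV collagen is their network-forming scaffold. Its chains join as trimers in the endoplasmic reticulum, the trimers meet at their ends to form a lattice, and laminins, nidogens and perlecan attach to it. Chains of Col4a1 and Col4a2 make the form found in nearly all tissues, whereas chains of Col4a3, Col4a4 and Col4a5 make the form of the kidney glomerulus, and Col4a5 also pairs with Col4a6. Type VIII collagen (Col8a1, Col8a2) builds the hexagonal lattice of the cornea's Descemet membrane and is made by vascular cells. Type XV and XVIII collagens (Col15a1, Col18a1) are proteoglycans of the basement membrane zone, and the end of the type XVIII chain is released as endostatin. RNF185 is a ubiquitin ligase of the endoplasmic reticulum membrane that takes part in disposal of misfolded proteins.

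The type IV genes lie in head-to-head pairs, each pair sharing the stretch between its starts. In GENCODE M21 on GRCm38 (mm10), Col4a1 (ENSMUSG00000031502, chr8:11198423-11312826, minus strand) and Col4a2 (ENSMUSG00000031503, chr8:11312805-11449287, plus strand) start 21 bases apart. Col4a3 (ENSMUSG00000079465, chr1:82586921-82722059, plus strand) and Col4a4 (ENSMUSG00000067158, chr1:82448423-82586849, minus strand) start 72 bases apart. The gap is 1309 bases between Col4a5 (ENSMUSG00000031274, chrX:141475385-141689234, plus strand) and Col4a6 (ENSMUSG00000031273, chrX:141165403-141474076, minus strand). Promoter windows from RefSeq on GRCm38.p6, 250 bases before to 50 after a start, were matched for 9 of the 10 genes, in 10 windows. Each window was searched on both strands for the letters CCAAT, known as the CCAAT box, and for GGGCGG, known as the GC box. It was also searched for TATAAA, the TATA box, and for the run CCCTCCCC, called the CTC box here. A CCAAT box was in 4 of the 10 windows, a GC box in 7, a CTC box in 4 and a TATA box in 0. Among all 32851 windows of that table the shares were 37.4%, 35.7%, 10.8% and 13.6%. The Col4a1 and Col4a2 windows share 78 bases, so their counts are not separate. These matches describe the letters and say nothing of binding.

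The sequences below show the start region of the pair whose RNA moved together (Col4a2), the starts of a pair whose levels lay far apart (Col4a5 and Col4a6) and the start of the gene that differed most clearly between the hairpins (Col18a1). Each is written 5′ to 3′ on the gene's own strand, with motif matches in capitals. The first lies just before the Col4a2 start and inside the first exon of Col4a1, and the GC box of Col4a5 overlaps its CTC box.
Col4a2, chr8:11312773-11312799, plus strand: CCAATttgttggcgctgccCCCTCCCC
Col4a5, chrX:141475169-141475399, plus strand: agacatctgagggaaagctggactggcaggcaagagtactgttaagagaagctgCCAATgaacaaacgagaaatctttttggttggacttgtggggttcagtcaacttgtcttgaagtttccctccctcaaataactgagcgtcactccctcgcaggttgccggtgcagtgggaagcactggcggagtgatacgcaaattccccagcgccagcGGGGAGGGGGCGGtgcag
Col4a6, chrX:141474077-141474326, minus strand: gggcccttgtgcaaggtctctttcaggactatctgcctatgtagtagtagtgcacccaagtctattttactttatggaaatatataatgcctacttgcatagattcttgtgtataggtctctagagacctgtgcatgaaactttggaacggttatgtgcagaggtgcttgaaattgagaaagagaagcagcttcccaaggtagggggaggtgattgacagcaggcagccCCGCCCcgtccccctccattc
Col18a1, chr10:77166531-77166780, minus strand: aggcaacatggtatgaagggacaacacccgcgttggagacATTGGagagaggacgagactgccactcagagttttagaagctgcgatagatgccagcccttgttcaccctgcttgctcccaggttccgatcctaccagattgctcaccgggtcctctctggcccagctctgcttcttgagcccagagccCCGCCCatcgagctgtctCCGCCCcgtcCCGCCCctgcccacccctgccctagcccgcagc
In the first of these the CCAAT box sits at position -32 from the Col4a2 start and the CTC box at position -13. CpG dinucleotides numbered 37 in the whole Col4a1 window and 33 in that of Col4a2, against a median of 7 over all windows. The Col4a5 window had 11 and the Col4a6 window had 3. The upstream Col18a1 window had 16, and its 3 GC boxes all read CCGCCC on the strand printed.

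Total counts per library ranged from 22027395 to 43379662, and 3 counts corresponded to 0.0692 to 0.136 CPM. Rnf185 itself stood at 35.9 ± 1.96 CPM in control libraries (SD, n = 6). It stood at 5.81 ± 0.58 in those carrying shRNF185.1 and at 5.80 ± 0.55 in those carrying shRNF185.3. Col3a1, the fibrillar collagen gene in the series title, stood at 545 ± 130, 1175 ± 318 and 1650 ± 309 CPM. Among prostate luminal markers, Hoxb13 lay above 40 CPM in every library, whereas Pbsn was at 0 and Psca had at most 1 count. Of the summed CPM of the 7 endothelial markers, nearly all was Flt1. Cdh5, Tek, Emcn and Tie1 had at most 2 counts in any library. Pecam1 had 1 to 11 counts and Vwf 0 to 24 (at most 0.997 CPM, with shRNF185.3). Of the 6 leukocyte markers, Ptprc, Adgre1, Itgam and Cd3e had at most 3 counts and Csf1r at most 5, whereas Cd68, a lysosomal protein abundant in macrophages, had 44 to 145 (1.75 to 5.04 CPM). The 8 epithelial markers summed to 1721 to 2552 CPM in control, 1022 to 1762 with shRNF185.1 and 1181 to 1383 with shRNF185.3. In 3 of the 8 with shRNF185.1 (Cdh1, Krt8, Krt18) and in 4 of the 8 with shRNF185.3 (the same and Cldn4) every hairpin library lay below every control library. Over all tested genes, groups did not overlap, in either direction, for 12.8% and 13.3%. Epcam never exceeded 7 counts. The 8 mesenchymal markers summed to 4946 to 6817, 5840 to 6833 and 6569 to 8151 CPM. Only 1 of the 8 with shRNF185.1 (Pdgfrb, 187 against 186 CPM at the closest) lay above every control library. With shRNF185.3 it was 2 of the 8 (Pdgfra and Pdgfrb), and the other markers, Vim and Fn1 among them, overlapped control. The epithelial and mesenchymal markers named as lying apart from control thus moved with the groups compared below. Every endothelial, leukocyte and prostate luminal marker overlapped control with both hairpins. The part of any marker in the collagen results was not tested.

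In control libraries the members fell into a high and a low set when levels were divided by exon length. Col4a1 stood at 110.8 ± 8.89 CPM per kb of exon, Col4a2 at 86.5 ± 8.06, Col18a1 at 47.7 ± 5.54 and Col4a5 at 30.1 ± 4.07 (SD, n = 6). Col15a1 followed at 1.78 ± 0.74 and Col8a1 at 0.455 ± 0.139. The remaining 4 lay under 0.05 CPM per kb: 0.0415 ± 0.0159 for Col4a6, 0.0215 ± 0.0179 for Col8a2, 0.0167 ± 0.0039 for Col4a3 and 0.0157 ± 0.0068 for Col4a4. Neighbours in this order did not overlap from Col4a1 down to Col8a1, with the lowest Col4a1 library close to the highest of Col4a2, while the last 4 overlapped each other. Among 14263 tested genes with an annotated length, Col4a1 ranked 467, Col4a2 609, Col18a1 1150, Col4a5 1873, Col15a1 10046 and Col8a1 12288. By level per kb, 96.7% of those genes lay below Col4a1 and 86.9% below Col4a5, whereas 13.8% lay below Col8a1.

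**Figure D1:**
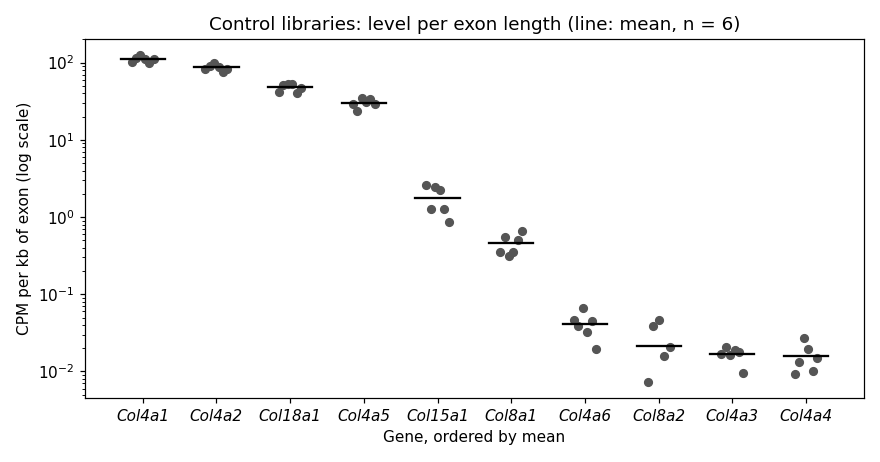
Level of each gene in the 6 control libraries, in CPM per kb of exon on a log axis, with points for libraries and a line at the mean. The 1 library with 0 counts of Col8a2 cannot be drawn on this axis; Col4a1, Col4a2, Col18a1 and Col4a5 lie above 20 and the last 4 genes below 0.1.

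With shRNF185.1, 3 of the 6 tested members rose (Col4a1, Col4a2, Col8a1) and 1 fell (Col18a1) at an adjusted p under 0.05 by edgeR's quasi-likelihood test. Over all 14309 genes tested 28.9% were called in this comparison, 14.6% higher and 14.3% lower. With shRNF185.3, 4 of the 6 rose (Col4a1, Col4a2, Col4a5, Col8a1) and 0 fell, against 27.3% of all genes called, 14.2% of them upward and 13.1% downward. In the average of the hairpins against control the same 4 were higher, against 32.9% of all genes called, 16.1% upward and 16.8% downward. Between the hairpins 1 of the 6 differed, Col18a1, higher with shRNF185.3. In that comparison 14.7% of all genes were called, 7.72% upward and 6.94% downward. The members' median log2 fold change was 0.24 for shRNF185.1 and 0.26 for shRNF185.3, beside -0.02 over all tested genes in each. The hairpin comparisons share their control libraries. In bulk RNA, a change in the number of cells making a transcript and a change in transcript per cell cannot be told apart.

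**Figure D2:**
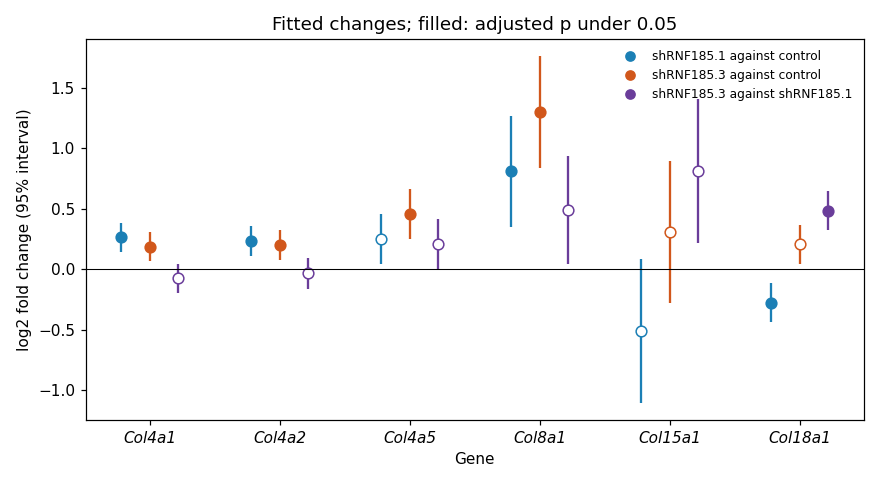
Fitted log2 fold change of the 6 tested genes with 95% intervals for each hairpin against control and for shRNF185.3 against shRNF185.1; filled points have an adjusted p under 0.05. Col4a1 and Col4a2 sit at similar small positive values with both hairpins, Col8a1 is highest, and Col18a1 lies below 0 with shRNF185.1 and above 0 with shRNF185.3.

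Col4a1 and Col4a2 encode the chains of the common type IV trimer, and both rose with each hairpin. Col4a1 ran from 747 to 931 CPM in control (median 826), from 914 to 1056 with shRNF185.1 (median 986) and from 876 to 999 with shRNF185.3 (median 947). Most shRNF185.1 libraries (5 of 6) and 3 of 6 shRNF185.3 libraries lay above the highest control library, so the ranges overlapped. The fold was 1.2 with shRNF185.1 (log2 0.26, SE 0.06, edgeR adjusted p = 0.00182) and 1.14 with shRNF185.3 (log2 0.19, SE 0.06, adjusted p = 0.0195). Col4a2 ran from 498 to 659 CPM in control (median 568), from 624 to 723 with shRNF185.1 (median 673) and from 601 to 709 with shRNF185.3 (median 661). Its ranges overlapped control too, with 3 of 6 and 4 of 6 libraries above the highest control. The fold was 1.18 with shRNF185.1 (log2 0.23, SE 0.06, adjusted p = 0.00671) and 1.15 with shRNF185.3 (log2 0.20, SE 0.06, adjusted p = 0.0187). Neither gene differed between the hairpins beyond the spread: the log2 difference of shRNF185.3 from shRNF185.1 was -0.07 for Col4a1 (95% interval -0.19 to 0.05) and -0.03 for Col4a2 (-0.16 to 0.10). Exons of the pair overlap by 22 bases on opposite strands, which is 0.295% of Col4a1 exon sequence and 0.332% of that of Col4a2.

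The ratio of the pair, which does not depend on scaling between libraries, was nearly constant. Counts of Col4a1 over Col4a2 gave 1.45 ± 0.043 in control (SD, n = 6), 1.48 ± 0.063 with shRNF185.1 and 1.43 ± 0.033 in the libraries of shRNF185.3. Per kb of exon these ratios were 1.28, 1.31 and 1.27. The log2 ratio differed from control by 0.03 with shRNF185.1 (two-sided exact permutation p = 0.387) and by -0.02 with shRNF185.3 (p = 0.491). After Benjamini-Hochberg adjustment over the 12 ratio tests run, these p-values were 0.664 and 0.717, where the smallest raw p that 6 against 6 libraries allow is 0.00216.

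Col4a5, the X-linked chain, rose with shRNF185.3 and had an intermediate level with shRNF185.1. Its control libraries ran from 157 to 234 CPM (median 203). Those with shRNF185.1 ran from 203 to 316 (median 236), and those with shRNF185.3 from 260 to 287 (median 279). The shRNF185.3 libraries were tightly grouped and all lay above every control library, while the shRNF185.1 range overlapped both others and had its high value in replicate 1. Groups that do not overlap were found for 13.3% of all tested genes in the shRNF185.3 comparison, and for 2 of the 6 members. The fold was 1.37 with shRNF185.3 (log2 0.46, SE 0.10, adjusted p = 0.00193). With shRNF185.1 it was 1.19 and missed the threshold (log2 0.25, 95% interval 0.04 to 0.46, adjusted p = 0.067), and DESeq2 placed it under the threshold (adjusted p = 0.0461). So did the fits without control replicate 3, shRNF185.1 replicate 4, shRNF185.1 replicate 6 or batch 2 (adjusted p 0.0352, 0.0318, 0.039 and 0.0257). Without shRNF185.1 replicate 1 the log2 value was 0.155 (adjusted p = 0.187), and without batch 1 it was 0.04 (adjusted p = 0.803). The hairpins' difference did not pass either (log2 0.21, adjusted p = 0.193).

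The partner chains of Col4a5 were near the limit of counting. Col4a6 had 5 to 13 counts per library in control, 5 to 7 with shRNF185.1 and 8 to 14 with shRNF185.3. Every shRNF185.3 library had more than every shRNF185.1 library, with 7 counts against 8 at the closest, and control overlapped both. Among all tested genes, which do not include Col4a6, the hairpin groups did not overlap for 8.25%. It did not pass the filter on low counts; in a fit without the filter, chosen as an alternative, the log2 difference of shRNF185.3 from shRNF185.1 was 0.96 (adjusted p = 0.0605). Col4a3 had 3 to 8, 0 to 4 and 1 to 4 counts, and Col4a4 had 3 to 9, 1 to 8 and 3 to 7, in the same order of groups. Without the filter, Col4a3 gave log2 values of -0.90 and -0.89 for shRNF185.1 and shRNF185.3 against control (adjusted p = 0.262 and 0.272), and Col4a4 gave -0.38 and 0.32 (adjusted p = 0.633 and 0.675). Col4a6 did pass that filter in some fits on fewer or summed libraries. Counting those and the fit without the filter, its difference between the hairpins was called in 7 of 8 fits (log2 0.95 to 1.08, adjusted p 0.0225 to 0.0605), and the difference of shRNF185.1 from control in 1 of 8, without batch 3 (log2 -0.99, adjusted p = 0.0483). In the filtered fits on single libraries, it passed through control and shRNF185.3 libraries only, the higher side of these differences. The 8 fits also reuse mostly the same libraries, so the tally is not separate support. A noncoding gene on the opposite strand, C430014B12Rik, overlaps 5.65% of Col4a3 exon sequence.

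Col8a1 (ENSMUSG00000068196, chr16:57624258-57754737, minus strand), a chain of the short-chain lattice collagen, had the largest fold changes among the tested members, from a low level. It ran from 2.48 to 5.21 CPM in control (median 3.33), from 4.17 to 8.83 with shRNF185.1 (median 6.27) and from 5.28 to 11.5 with shRNF185.3 (median 9.05). All shRNF185.3 libraries lay above every control library, the lowest of them only just, and 4 of 6 shRNF185.1 libraries did. The fold was 1.75 with shRNF185.1 (log2 0.81, SE 0.22, adjusted p = 0.00894) and 2.46 with shRNF185.3 (log2 1.3, SE 0.22, adjusted p = 0.000197). The hairpins did not differ at the threshold (log2 0.49, 95% interval 0.04 to 0.94, adjusted p = 0.146). Its partner Col8a2 (ENSMUSG00000056174, chr4:126286793-126314330, plus strand) had 0 to 5 counts in control, 1 to 7 with shRNF185.1 and 3 to 10 with shRNF185.3. The summed counts were 16, 24 and 43 over the 6 libraries of each group, and 5 of 6 shRNF185.3 libraries exceeded the highest control CPM. Without the filter its log2 fold change was 0.69 with shRNF185.1 (adjusted p = 0.473) and 1.54 with shRNF185.3 (adjusted p = 0.0472), values that rest on these few counts. With libraries of a group and batch summed it passed the filter through the shRNF185.3 sums alone, the group where it was highest. The shRNF185.3 value there was 1.65 (edgeR adjusted p = 0.00242). Because the filter kept the gene through that group, this value adds no separate support.

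Col18a1 (ENSMUSG00000001435, chr10:77052178-77166548, minus strand), the endostatin precursor, was the member on which the hairpins parted. Control libraries ran from 284 to 374 CPM (median 345), shRNF185.1 libraries from 254 to 311 (median 267) and shRNF185.3 libraries from 346 to 430 (median 391). The hairpin groups did not overlap each other, which held for 8.25% of all tested genes, and each overlapped control: 4 of 6 shRNF185.1 libraries lay below the lowest control and 4 of 6 shRNF185.3 libraries above the highest. It fell to 0.826 of control with shRNF185.1 (log2 -0.28, SE 0.08, adjusted p = 0.0109). With shRNF185.3 the fold was 1.15 and just missed the threshold (log2 0.21, 95% interval 0.05 to 0.37, adjusted p = 0.0521). Of 31 alternative fits 10 called it and 21 did not. Those that did included DESeq2 (adjusted p = 0.034), library size scaling alone (adjusted p = 0.0378) and 5 fits without a single library. The direct test of shRNF185.3 against shRNF185.1 gave a fold of 1.40 (log2 0.48, 95% interval 0.32 to 0.64, adjusted p = 0.000248). Rnf185 itself differed between the hairpins by a log2 value of 0.00 (95% interval -0.16 to 0.16).

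Col15a1 (ENSMUSG00000028339, chr4:47208161-47313167, plus strand), the other proteoglycan-type collagen, was the most variable of the tested members. It ran from 5.40 to 16.5 CPM in control (median 11.1), from 5.27 to 12.7 with shRNF185.1 (median 6.52) and from 9.93 to 20.1 with shRNF185.3 (median 13.7). All 3 ranges overlapped, and the coefficient of variation was 41.4% in control and 41.2% with shRNF185.1. With all libraries, no comparison passed the threshold in edgeR: log2 -0.51 with shRNF185.1 (95% interval -1.10 to 0.09, adjusted p = 0.197) and 0.31 with shRNF185.3 (-0.28 to 0.89, adjusted p = 0.449). The shRNF185.1 value was -0.89 without batch 3, which passed (adjusted p = 0.044), and -0.06 without batch 2 (adjusted p = 0.903). The direct test between the hairpins gave log2 0.81 (0.22 to 1.41, adjusted p = 0.0632), and it passed with DESeq2 (adjusted p = 0.0255) and with limma on log2(CPM + 1) (adjusted p = 0.0474).

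**Figure D3:**
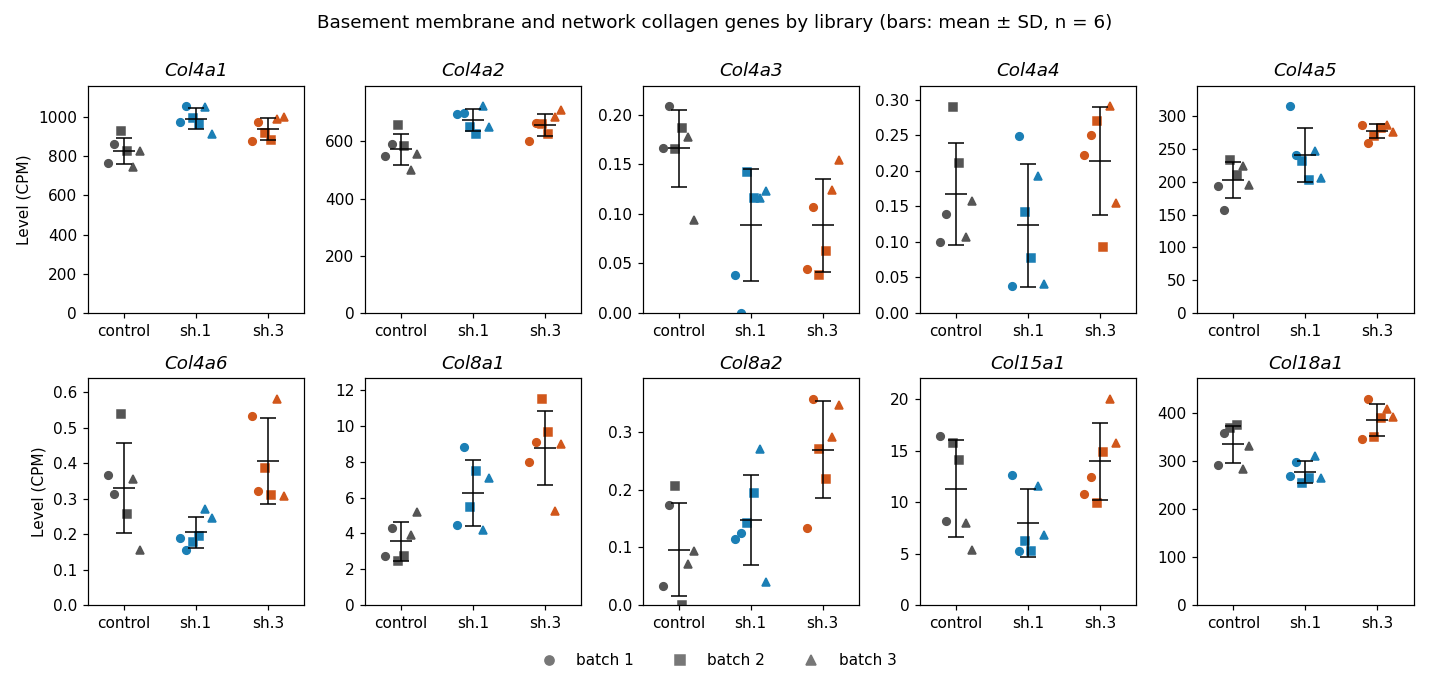
CPM of all 10 genes in every library, by group (sh.1 and sh.3 are the hairpins shRNF185.1 and shRNF185.3), with the batch as the marker shape and bars at mean ± SD, n = 6. Col18a1 separates the hairpins, Col4a5 and Col8a1 with shRNF185.3 lie above all control libraries, and Col4a3, Col4a4, Col4a6 and Col8a2 stay below 0.6 CPM.

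Within the labelled batches, each with 2 libraries of every group, the direction was steady for some members and not for others. The Col18a1 difference between the hairpins was log2 0.45, 0.51 and 0.48 in batches 1, 2 and 3. For Col4a1 the differences from control were 0.32, 0.16 and 0.32 for shRNF185.1 and 0.19, 0.04 and 0.35 for shRNF185.3. For Col4a2 they were 0.29, 0.04 and 0.38 for the first hairpin and 0.15, 0.05 and 0.41 for the other. Both genes were thus above control in every batch and least so in batch 2. Col4a5 gave 0.65, 0.32 and 0.43 with shRNF185.3 but 0.66, -0.04 and 0.11 with shRNF185.1, where batch 1 held most of the difference. Col8a1 was above control in every batch, by 0.86, 1.27 and 0.26 for shRNF185.1 and by 1.29, 1.99 and 0.61 for shRNF185.3. Its call with shRNF185.1 was lost without batch 1 (log2 0.75, adjusted p = 0.0928) and without batch 2 (0.60, adjusted p = 0.0895). The fall of Col18a1 with shRNF185.1 was -0.19, -0.52 and -0.10, largest in batch 2, without which it did not pass (log2 -0.15, adjusted p = 0.221). Col15a1 changed sign between batches, at -0.50, -1.37 and 0.43 with shRNF185.1. Without batch 1, 1 of the 4 calls with shRNF185.1 and 2 of the 4 with shRNF185.3 remained under the threshold, in fits with 12 libraries.

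**Figure D4:**
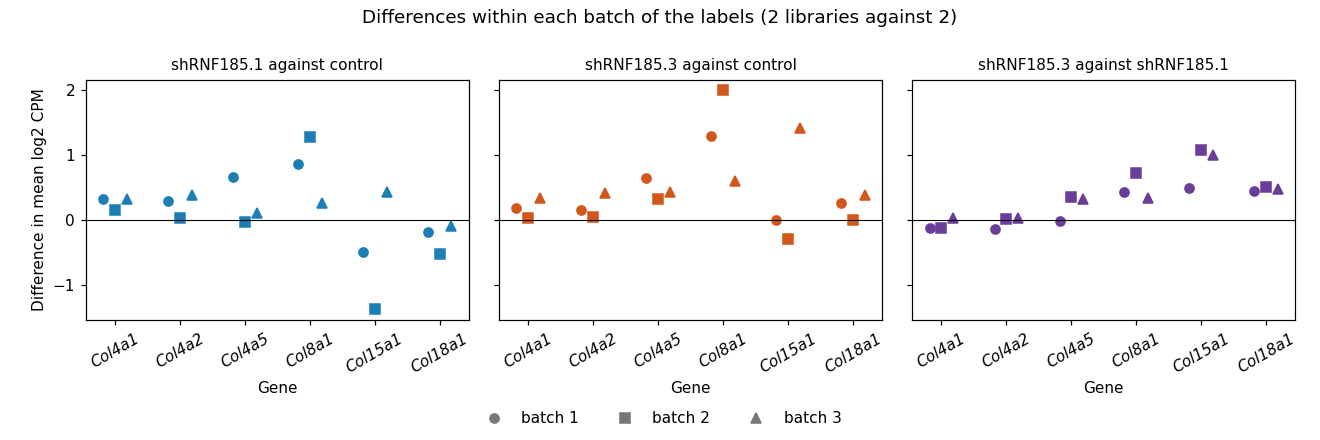
Difference in mean log2 CPM of the 6 tested genes within each batch (2 libraries against 2), for the comparisons named above each panel. Col18a1 gives nearly equal differences of 0.45 to 0.51 between the hairpins, and Col15a1 against control lies on both sides of 0.

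The makeup of the family's RNA shifted between the hairpins. Of the summed level per kb of the 10 genes, Col4a1 made up 40.0 ± 0.85% in control (SD, n = 6), 42.6 ± 1.39% with shRNF185.1 and 38.8 ± 0.57% under shRNF185.3. Col18a1 made up 17.2 ± 1.07%, 12.6 ± 0.61% and 16.9 ± 0.97%. Col4a5 made up 10.9 ± 1.59%, 11.4 ± 1.56% and 12.7 ± 0.92%, and Col8a1 0.166 ± 0.055%, 0.258 ± 0.080% and 0.346 ± 0.088%. The Col18a1 share was thus lower with shRNF185.1 than in either other group by more than the spread between libraries. Ratios of other pairs were chosen after these values were seen. Col18a1 over Col4a1, in counts, was 0.404 ± 0.027 in control, 0.279 ± 0.014 with shRNF185.1 and 0.410 ± 0.026 with shRNF185.3. Its log2 value differed by -0.54 for shRNF185.1 against control (exact permutation p = 0.00216, adjusted p = 0.013) and by 0.02 for shRNF185.3 against control (p = 0.686, adjusted p = 0.749). Col4a5 over Col4a1 differed by -0.02 and 0.28 for the same comparisons (exact permutation p = 0.896 and 0.0173, adjusted p = 0.896 and 0.0584).

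Members also moved together among libraries of the same group. After the group mean was subtracted from log2 CPM, Col4a1 and Col4a2 correlated over 18 libraries with Pearson r = 0.891 (permutation p = 2e-05) and Spearman rho = 0.901 (p = 1e-05, the smallest that 100000 permutations can give). Without the 2 libraries farthest from the median of Col4a1 r was 0.819, and within group and batch it was 0.939. After adjustment over the 15 pairs of tested members, which were examined after the levels had been seen, these p-values were 0.0003 and 0.00015. Col18a1 followed Col4a1 with r = 0.788 (rho 0.775, permutation p = 0.00068 and 0.0009, adjusted p = 0.0034 and 0.0045; 0.727 without 2 libraries, 0.754 within group and batch). It followed Col4a2 with r = 0.748 (rho 0.74, permutation p = 0.00122 and 0.0013, adjusted p = 0.00457 and 0.00487; 0.662 and 0.60). Col8a1 and Col15a1 moved in opposite directions, at r = -0.885 (rho -0.878, permutation p = 5e-05 and 8e-05, adjusted p = 0.000375 and 0.0006; -0.87 and -0.91). The other 11 pairs had adjusted p of at least 0.125 for r and at least 0.0811 for rho. Of these, Col4a5 had r = -0.525 with Col8a1 and 0.524 with Col15a1 over all 18 libraries (adjusted p = 0.125 and 0.13), and -0.911 and 0.90 within group and batch. Each group and batch holds 2 libraries, whose deviations mirror each other. All r values within group and batch thus rest on fewer independent values than 18, and they carry no p-value here. In control and shRNF185.1 libraries, the odd-numbered library of every batch had more Col15a1 and less Col8a1 than the even-numbered one, in 3 of 3 batches each, and with shRNF185.3 this held in 1 of 3 and 2 of 3. Col4a5 was higher in the odd-numbered library in 3 of 3 batches of control and of shRNF185.1, and in 2 of 3 of shRNF185.3. The libraries share a depth scaling and a batch adjustment, and odd-numbered and even-numbered libraries differed as described. The part of any of these in the correlations and their p-values was not tested.

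**Figure D5:**
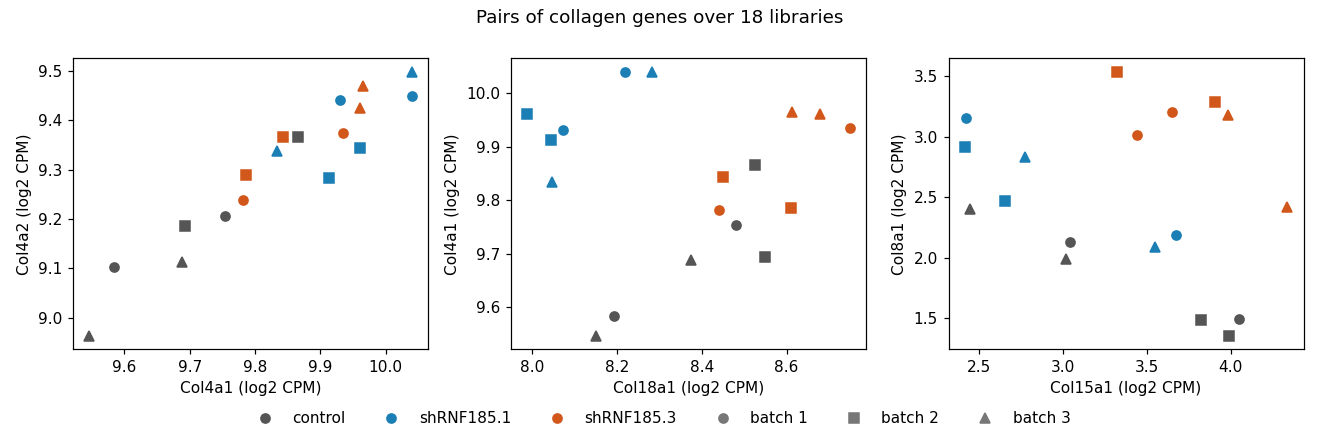
Log2 CPM of pairs of genes in 18 libraries, with colour for the group and marker shape for the batch. Col4a1 and Col4a2 rise together across all libraries, libraries high in Col18a1 tend to be high in Col4a1 within a group with the shRNF185.1 group set apart, and Col8a1 tends to fall as Col15a1 rises.

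Among 11695 genes with a mean count of at least 50, the within-group pattern of Col4a1 was closest to Phactr4 (r = 0.934), with Col4a2 next (0.891) and Ttc28 after it (0.88). Col4a2 was closest to Phactr4 (0.903), then Col4a1 (0.891) and Cep164 (0.889). Thus each gene of the head-to-head pair ranked 2 in the other's list. Col4a5 was closest to Ric1 (0.887), Tspan12 (0.874) and Chp1 (0.862), and Col18a1 to Zfp687 (0.928), Abl1 (0.924) and Plcg1 (0.909). Col8a1 was closest to Elp2 (0.951), Snrpa1 (0.945) and Rrm2 (0.937), and Col15a1 to Ganab (0.937), Bmf (0.936) and Dnajc16 (0.934). These correlations over 18 libraries are a description, since the libraries share scaling and batches.

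Genes for other parts of the basement membrane, and for proteins that modify, bind or cut its collagens, were read from the same fit, in which 28.9% of all tested genes were called for shRNF185.1 (14.6% higher, 14.3% lower) and 27.3% for shRNF185.3 (14.2% and 13.1%). Of 21 tested genes for other basement membrane components (29 listed), 6 rose and 1 fell with shRNF185.1, and 10 rose and 4 fell with shRNF185.3. Their median log2 change was 0.08 and 0.36. The laminin chains Lama4 and Lamc1 rose with both: Lama4 from 16.0 ± 2.53 CPM to 55.0 ± 11.4 and 48.2 ± 7.42, and Lamc1 from 275 ± 11 to 459 ± 13.9 and 393 ± 8.84. Npnt (nephronectin, an integrin ligand) fell from 40.5 ± 10.5 CPM to 6.92 ± 1.47 and 10.3 ± 1.87, a log2 change of -2.55 and -1.98. Of 21 tested genes that modify, export or cross-link collagen chains (22 listed), 12 rose and 1 fell with shRNF185.1 and 13 rose and 1 fell with shRNF185.3, with medians of 0.35 and 0.38, beside the same 28.9% and 27.3% of all genes. Serpinh1, the collagen chaperone of the endoplasmic reticulum, rose from 5.71 ± 2.15 CPM to 17.7 ± 3.73 and 10 ± 2.3 (edgeR adjusted p = 1.67e-05 and 0.00992). Loxl2, which cross-links type IV collagen, rose from 26.8 ± 12.2 to 55.7 ± 28.0 and 51.7 ± 16.9 (adjusted p = 0.0248 and 0.0443), and P3h3, a prolyl 3-hydroxylase family member, from 6.80 ± 1.76 to 10.5 ± 2.31 and 10.8 ± 1.91.

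The shares of all tested genes called, 28.9% and 27.3%, also apply to the next 3 lists. Of 13 tested receptors (15 listed), 5 rose and 2 fell with shRNF185.1 and 6 rose and 1 fell with shRNF185.3, with median log2 changes of 0.10 and 0.22. Adgrg6, an adhesion receptor that binds type IV collagen, rose from 74.5 ± 7.04 CPM to 94.4 ± 15.7 and 98.8 ± 11.1, and Ddr1, a collagen-binding kinase, from 167 ± 21.5 to 199 ± 15.5 and 198 ± 14.2. Itga6, part of laminin receptors, fell from 153 ± 26.2 to 105 ± 19.1 and 110 ± 12.8. Of 11 tested proteases and inhibitors (16 listed), 5 rose and 0 fell with shRNF185.1 and 5 rose and 1 fell with shRNF185.3, with medians of 0.16 and 0.23. They included the protease Ctsb (316 ± 30.8 to 511 ± 54.9 and 509 ± 43.8 CPM) and the inhibitors Timp3 (294 ± 39.9 to 491 ± 57.5 and 374 ± 39.5) and Timp2 (812 ± 85.3 to 959 ± 91.5 and 949 ± 43.4). For comparison, of 11 fibrillar collagen genes, all tested, 7 rose and 2 fell with shRNF185.1 and 9 rose and 0 fell with shRNF185.3, with medians of 1.11 and 1.54. Medians of the 6 tested network members were 0.24 and 0.26, and the difference between the lists was not tested.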

How the data were processed

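The labels describe poly(A) selection, a directional NEBNext kit and single-end sequencing of 18 libraries. Reads were trimmed with cutadapt 2.3, aligned with STAR 2.7.0d and quantified with RSEM 1.3.1 on mm10, per the submitters' processing notes. The annotation and the test they used are not given in the sources used here. The authors deposited expected counts, adjusted for batch with ComBat-Seq by the names in the labels, and 0.466% of the values were not whole. Whether that adjustment was given the groups is not stated. The authors also deposited CPM, handled as a normalised signal, because each column equals its counts over a TMM-adjusted library size. For genes outside that table CPM were computed in the same way.

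Expected counts were rounded and tested in R 4.3.3 with edgeR 4.0.16. filterByExpr with a minimum count of 10 kept 14309 genes. A mean per group was fitted to 18 TMM-scaled libraries, and quasi-likelihood F tests were followed by Benjamini-Hochberg adjustment across the tested genes. The design had assumed whole counts, and its test was kept. In 18 simulated libraries of 14178 genes, with changes placed in shRNF185.1, the test recovered 64.3% of log2 changes of 0.5. It recovered 89.7% of log2 changes of 1, and 5.66% of calls were false. Only 98 and 97 genes were changed at these sizes, whereas 28.9% of genes were called in the real comparison, so these rates need not hold there. Smaller changes, such as those of Col4a1, Col4a2 and Col18a1 against control, were not simulated. Alternatives used DESeq2 1.42.0, limma 3.58.1, other scaling, filters, blocks and omitted libraries. Same-numbered libraries did not meet the criterion for pairing. Ratios of counts per library were tested by exact permutation in scipy 1.17.1. Floors and intervals cover counting error only, or the spread between these libraries, since the reads carry no molecular identifiers.

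Named genes outside the family were up to 3 per list: those called in one direction with each hairpin, averaging 50 counts or more, and with the largest smaller change. Members and lists were chosen with earlier results of these data known. No 75-base stretch of a member occurred in another gene.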

Additional observations from a re-analysis of the deposited data

Results flagged for a closer look

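The difference of Col18a1 between the hairpins was singled out because a test of the difference itself passed the threshold. The log2 fold change of shRNF185.3 against shRNF185.1 was 0.48 (0.483), with an edgeR adjusted p of 0.000248. The shRNF185.3 level was above the shRNF185.1 level in 3 of 3 batches. Groups of 6 libraries were also searched for a library far from the others by Dixon's ratio. In 18 groups of the 6 tested genes 0 were found, where chance gives 0.9.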

How the results depend on the processing

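Each gene comparison was recomputed under 31 alternatives, 18 of which left out a library, and each ratio under 17, 12 of which did. The Col18a1 difference between hairpins held its direction and its call under all 31 (log2 0.45 to 0.52, adjusted p 1.01e-07 to 0.0102), as did Col4a5 (0.37 to 0.53, adjusted p 7.21e-05 to 0.0278) and Col8a1 (0.95 to 1.64, adjusted p 1.01e-07 to 0.0175) with shRNF185.3 against control. Leaving out a single library gave 4 to 5 called members with each hairpin against control, and 1 to 4 between the hairpins. The latter were 4 without shRNF185.1 replicate 1 and 3 without shRNF185.1 replicate 5. They were 2 without control replicate 6, shRNF185.1 replicates 4 and 6, or shRNF185.3 replicate 6. Except without control replicate 6, these fits tested 7 members, because Col4a6 passed the filter. Each of those called Col4a6 between the hairpins (edgeR adjusted p 0.0225 to 0.0447), from its few counts. The gene entered these fits through control and shRNF185.3 libraries only, so these calls add no separate support.

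Leaving out batches moved the calls both ways. Without batch 1, members called numbered 1 with shRNF185.1, 2 with shRNF185.3, 2 for the mean of both and 2 between hairpins. Without batch 3 they numbered 5 of 7 tested with shRNF185.1 (2 higher and 3 lower), 2 with shRNF185.3 and 2 between hairpins. In that shRNF185.1 fit Col4a2 lost its call (log2 0.165, edgeR adjusted p = 0.099), and Col15a1 and Col4a6 were called lower beside Col18a1. Col4a6 had passed the filter there through control and shRNF185.3 libraries only. Genes called over the whole table, 4141, 3906, 4701 and 2098 in the same order, became 2207, 2120, 2672 and 753 without batch 1, 2501 with shRNF185.3 and 3106 for the mean without batch 3, and 1208 between hairpins without batch 2. Without batch 2 they rose to 5119 with shRNF185.1 and 5411 for the mean. Col4a1 and Col4a2 with shRNF185.3 had adjusted p of 0.288 and 0.337 without batch 3, and 0.0682 and 0.0583 with no filter on low counts. Between hairpins 2 members, Col18a1 and Col15a1, were called with DESeq2, with limma on either pseudocount and with the offset for GC content and length. With summed libraries of a group and batch 2 were also called, Col18a1 and Col4a6, in a fit that tested 9 members. Why these fits differed from the main one was not tested.

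Col15a1 turned with shRNF185.3 without batch 3 (log2 -0.18, adjusted p = 0.729). For the mean of both hairpins, Col15a1 turned without batch 2 (0.29), without control replicate 1 (0.0377) and without control replicate 3 (0.0149), and Col18a1 without batch 2 (0.0823) and without control replicate 4 (0.000714). Col4a2 between hairpins turned without batch 1 (0.0209). The Col4a1 to Col4a2 ratio turned with shRNF185.1 without batch 2 (-0.0194) and with shRNF185.3 without batch 3 (0.00987), where exact permutation gave p = 0.657 and 0.771. With single libraries left out, that mean ran from -0.245 to 0.0377 for Col15a1 and from -0.077 to 0.000714 for Col18a1. Without a single library this ratio differed from control by 0.0131 to 0.0414 with shRNF185.1 and by -0.025 to -0.00468 with shRNF185.3.

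With a replicate block in the model, 4, 4, 4 and 1 members were called, as without it, and 3811, 3578, 4304 and 1976 genes over the whole table. With that block and an offset for GC content and length together, 2 members differed between hairpins. Deviations of libraries with the same number correlated at a mean of -0.0144 over 18 pairs, and 2 of 18 libraries correlated best with their own number. Those of the same batch with another number gave -0.434, and the labels tie the numbers to no shared source. The filter on low counts removed 4 members from the test, and their values in the fits that kept them rest on at most 14 counts per library or on sums of such counts.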
